A study of Mus musculus with 8 samples.

Results

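The mRNA levels of 10 integrin subunits were compared between naive CD4 T cells and effector Th1, Th2 and Th17 cells of the mouse. The members were taken by gene symbol and comprise 6 alpha chains (*Itga4*, *Itga6*, *Itga7*, *Itgae*, *Itgal* and *Itgav*) and 4 beta chains (*Itgb1*, *Itgb2*, *Itgb3* and *Itgb7*), out of 23284 gene symbols. Levels are given as FPKM, the number of sequenced fragments scaled to the length of the gene's exons and to the size of the library, so that levels of different genes can be set side by side. All 10 members reached a mean of at least 1 FPKM over the 8 libraries, the minimum for testing, as did 11198 genes in all.

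The strain of all samples was DO11.10 Tg, mice with a transgenic T cell receptor that sees an ovalbumin peptide. Naive cells were CD4+ spleen cells sorted as CD44low and CD62Lhi and were not cultured. Effector cells were made from naive cells in 6 days of culture with the peptide and irradiated splenocytes depleted of T cells. Both Th1 and Th2 cultures received IL-2 (30 U/ml), to which Th1 cultures added IL-12 (100 U/ml) and an antibody to IL-4 (1 µg/ml), and Th2 cultures added IL-4 (100 U/ml) and an antibody to IFNγ (10 µg/ml). Th17 cultures held IL-6, IL-1β and IL-23 at 10 ng/ml each and both antibodies at 10 µg/ml each, with no IL-2 listed. Th17 cultures thus differ from Th1 and Th2 cultures in IL-2 as well as in the polarizing cytokines. Each group had 2 libraries. The labels number them but do not say whether they came from separate cultures or mice. SDs describe the spread between the 2 libraries of a group. The p-values rest on a spread pooled over the 4 groups and moderated across genes. Neither can be read as spread between mice. Mice of the study were young adults.

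Integrins are cell surface receptors made of 1 alpha and 1 beta chain, and a chain reaches the surface only with a partner. On T cells they hold the cell to blood vessel walls, to antigen-presenting cells and to extracellular matrix, and which pairs a cell carries bears on which tissues it enters. Chemokine and T cell receptor signals switch integrins to a high-affinity form through talin, kindlin and Rap1, so mRNA levels say nothing of integrin activity. The beta 1 and beta 7 chains share alpha 4, which binds VCAM-1 and fibronectin with beta 1 and the gut addressin MAdCAM-1 with beta 7.

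The width of the deposited confidence intervals, read as counting error, implied 14097783 to 21055083 fragments per library, the 2 naive libraries being the shallowest. Reads were 50 bases long, and 50-base words of the members were searched on both strands in transcripts of other genes. Shared were 7.51% of the words of *Itga4*, 5.31% of *Itga6*, 5.40% of *Itgav* and 1.05% of *Itgb2*, against 0.207% or less for the other members. Overlapping genes on the opposite strand are counted in these shares. For *Itgav* the words matched *Gm13684* alone, and *Cerkl* was among the matches of *Itga4*. The CD4 T cell markers *Cd3e*, *Cd3d* and *Cd4* summed to 586 to 1003 FPKM in the 8 libraries. *Ccr7*, a marker of naive T cells, was at 327 and 310.4 FPKM in naive and 37.8 to 160.3 in effector libraries. The activation markers *Cd44* and *Il2ra* summed to 19.2 to 21.0 in naive and 666 to 933 in effector libraries. Most of the effector sum was *Il2ra*, at 604 to 865 FPKM. *Cd44* was at most 15.3 FPKM in naive and at most 21.7 in Th2 libraries, against 60.4 to 68.1 in Th1 and Th17 libraries. Lineage markers stood where the labels put them. *Ifng* and *Tbx21* summed to at least 665 FPKM in Th1 cells and to at most 3.85 elsewhere, and *Il4*, *Il13* and *Gata3* to at least 373 in Th2 cells and to at most 26.2 elsewhere. *Il17a* was at 347 and 335 FPKM in Th17 cells and at most 0.711 elsewhere. CD8 T cell markers were at a higher level in naive libraries, where *Cd8a* and *Cd8b1* summed to 54.5 to 93.4 FPKM against 8.94 to 13.0 in effector libraries. Nearly all of that sum was *Cd8b1*, since *Cd8a* was at 2.94 and 1.77 FPKM in the naive libraries. *Foxp3*, the regulatory T cell factor, was at 6.68 and 12.8 FPKM in naive libraries, with Th1 at 0.874 and 1.13, Th2 at 0.423 and 0.541, and Th17 at 3.03 and 5.76. The part of these cells in any difference from naive cells was not tested, and in bulk RNA fewer cells of a type and less RNA per cell cannot be told apart.

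Against naive cells, 3 alpha or beta chains were higher in all 3 effector groups (*Itga7*, *Itgav* and *Itgb1*), 3 were lower in all 3 (*Itga4*, *Itga6* and *Itgb7*), and 3 were higher in 1 subset and lower in another (*Itgal*, *Itgb2* and *Itgb3*). The members of the last set numbered 2 without naive replicate 1 or Th1 replicate 2 (*Itgal* and *Itgb3*), and 2 without naive replicate 2 or Th2 replicate 2 (*Itgb2* and *Itgb3*). *Itgae*, the remaining member, was higher in Th2 and Th17 cells, and could be tested only through its levels there. With quantile normalization *Itgae* joined the last set in place of *Itgb2*. Differences were tested with limma on log2(FPKM + 1) across all 11198 genes, and a gene passed at a Benjamini-Hochberg adjusted p under 0.05. Of the 10 members, 5 were higher and 4 lower in Th1 than in naive cells, beside 33.8% and 33.5% of all tested genes and 67.3% in either direction. For Th2 cells the members gave 5 higher and 4 lower calls, beside 31.8% and 38.7% of all genes and 70.5% in either direction. For Th17 cells they gave 4 higher and 5 lower calls, beside 37.5% and 29.8% of all genes and 67.3% in either direction. Being called was therefore common among all genes. Of all tested genes, 24.8% were higher in all 3 effector groups, 23.8% were lower in all 3, and 3.47% were higher in 1 and lower in another. The median absolute difference of the members was 1.31, 1.49 and 1.51 in Th1, Th2 and Th17 cells, beside 0.63, 0.68 and 0.63 over all tested genes. The members were chosen with earlier results of these data known, so their counts and medians beside those of all genes are a description. The 3 comparisons share the naive libraries.

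**Figure D1:**
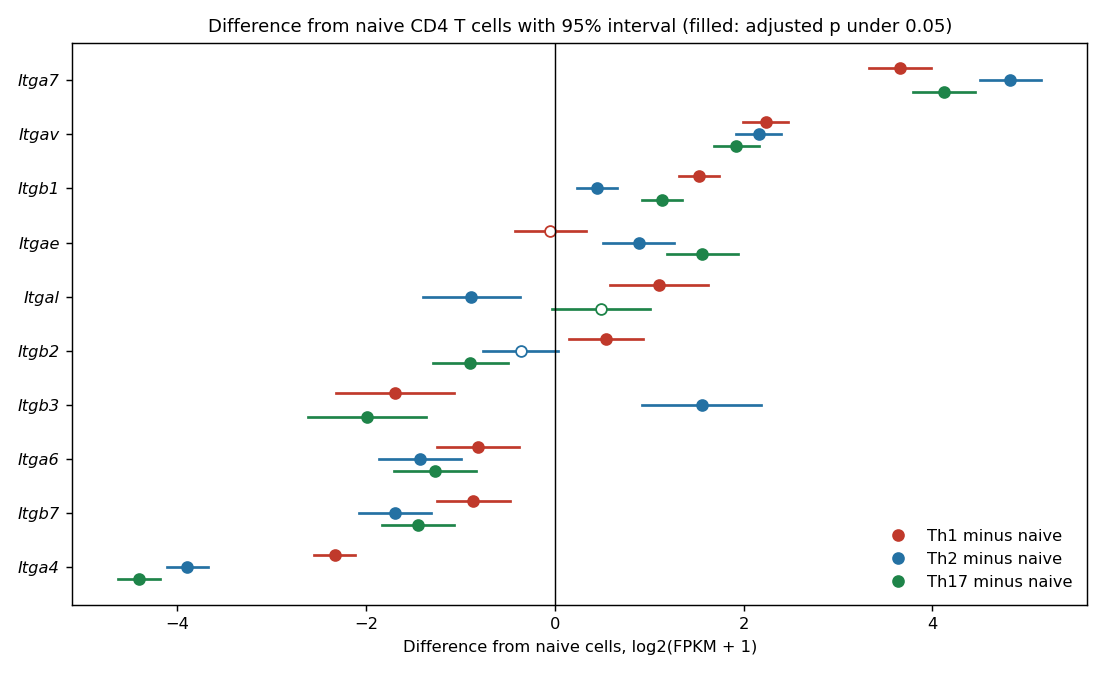
Difference of each integrin subunit from naive CD4 T cells in log2(FPKM + 1), with the 95% interval, for Th1, Th2 and Th17 cells. Filled points had an adjusted p under 0.05, and *Itga7* lies farthest to the right in all 3 effector groups and *Itga4* farthest to the left in Th1, Th2 and Th17 alike.

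Among members that shared a direction in all 3 effector groups, promoter sequences from RefSeq (GRCm38.p6) were used for *Itga4* and *Itgb7*, which were lower, and for *Itgav* and *Itgb1*, which were higher. They are shown so that the members that moved together can be compared in sequence. Each run covers 250 bases before and 50 bases after the annotated start, 5′ to 3′ on the gene's strand, and capitals mark a match to 1 of 9 words searched on both strands.
Itga4, chr2:79255176-79255475, plus strand: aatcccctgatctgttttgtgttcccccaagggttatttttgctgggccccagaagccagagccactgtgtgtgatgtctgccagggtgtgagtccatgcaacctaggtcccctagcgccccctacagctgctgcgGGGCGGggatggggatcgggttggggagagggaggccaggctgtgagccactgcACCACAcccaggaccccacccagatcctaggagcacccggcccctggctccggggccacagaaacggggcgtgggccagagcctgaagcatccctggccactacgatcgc
Itgb7, chr15:102231886-102232185, minus strand: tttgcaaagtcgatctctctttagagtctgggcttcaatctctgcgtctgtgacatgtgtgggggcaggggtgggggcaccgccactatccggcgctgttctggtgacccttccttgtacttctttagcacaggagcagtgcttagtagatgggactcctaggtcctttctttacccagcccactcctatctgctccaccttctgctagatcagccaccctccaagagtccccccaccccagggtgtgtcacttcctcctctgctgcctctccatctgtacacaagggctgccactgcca
Itgav, chr2:83724147-83724446, plus strand: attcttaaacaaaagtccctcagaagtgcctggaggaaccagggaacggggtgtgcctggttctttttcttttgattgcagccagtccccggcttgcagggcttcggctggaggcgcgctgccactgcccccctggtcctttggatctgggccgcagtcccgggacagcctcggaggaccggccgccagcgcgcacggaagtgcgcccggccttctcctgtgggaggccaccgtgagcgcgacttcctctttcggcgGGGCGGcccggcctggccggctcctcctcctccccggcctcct
Itgb1, chr8:128685404-128685703, plus strand: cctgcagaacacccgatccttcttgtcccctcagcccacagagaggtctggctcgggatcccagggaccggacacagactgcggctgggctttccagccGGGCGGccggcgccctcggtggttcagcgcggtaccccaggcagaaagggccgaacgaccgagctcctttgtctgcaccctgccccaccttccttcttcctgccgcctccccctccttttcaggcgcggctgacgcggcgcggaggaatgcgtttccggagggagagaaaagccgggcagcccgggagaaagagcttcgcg
The word GGGCGG, a GC box, was found once in *Itga4*, *Itgav* and *Itgb1* and in 35.7% of 32851 promoters of the same length. TGTGGT, the core letters bound by Runx factors, was found in *Itga4* on the reverse strand, where it reads ACCACA, and in 16.8% of all promoters. Not in the 4 windows were the letters AGATAA or TGATAA of GATA factors, the T-box word AGGTGTG, the nuclear receptor word AGGTCA, the STAT word TTCNNNGAA, the AP-1 word TGANTCA and the ETS word CCGGAAG, which 11.2%, 9.05%, 5.84%, 16.3%, 8.30%, 7.81% and 8.86% of all promoters hold. GC content was 64.3% in *Itga4*, 67.3% in *Itgav* and *Itgb1* and 56.3% in *Itgb7*, beside a median of 52.7% over all promoters.

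Between effector subsets, 9 of the 10 members passed in at least 1 of the 3 comparisons, beside 59.9% of all tested genes, and *Itgav* was the exception. In all 3 comparisons 5 members passed (*Itga4*, *Itga7*, *Itgae*, *Itgb1* and *Itgb2*), beside 9.14% of all genes. That number was 4 without either naive library, 3 without Th1 replicate 1, Th1 replicate 2 or Th2 replicate 1, and 2 without Th2 replicate 2, Th17 replicate 1 or Th17 replicate 2. *Itga4* was the member that passed in all 3 comparisons whichever of the 8 libraries was left out. *Itgae*, which is among the 5, could be tested only through its Th2 and Th17 levels. Since the members were chosen with earlier results of these data known, their counts beside all genes are a description here too. Th1 cells had 6 members higher and 3 lower than Th2 cells, beside 27.4% and 16.9% of all genes and 44.3% in either direction. Th17 cells had 3 higher and 4 lower than Th2 cells, beside 31.7% and 12.0% of all genes and 43.6% in either direction. Th1 cells had 4 higher and 2 lower than Th17 cells, beside 9.17% and 16.0% of all genes and 25.1% in either direction. Higher members numbered 2 without Th1 replicate 2 or Th17 replicate 1, and lower members 1 without any 1 of the 8 libraries. The libraries of the groups did not overlap for 9 members in Th1 against naive cells, beside 82.6% of all genes, nor for all 10 members in Th2 and Th17 against naive cells, beside 83.8% and 82.7%. They did not overlap for 9 members in Th1 against Th2, 10 in Th17 against Th2 and 9 in Th1 against Th17 cells, beside 73.8%, 74.8% and 62.9%. The split of calls over all genes moved with the scaling of libraries. Of the genes called in Th17 against Th2 cells, 72.6% were higher in Th17, but 53.3% after scaling to equal medians and 50.7% after quantile normalization. The same shares were 61.8%, 52.8% and 50.9% in Th1 against Th2, 36.5%, 48.1% and 49.7% in Th1 against Th17, and 55.7%, 53.4% and 44.2% in Th17 against naive cells. The median difference over all tested genes was 0.18 in Th17 against Th2, 0.11 in Th1 against Th2 and -0.11 in Th2 against naive cells, and is the level against which the members' values in those comparisons are to be read.

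**Figure D2:**
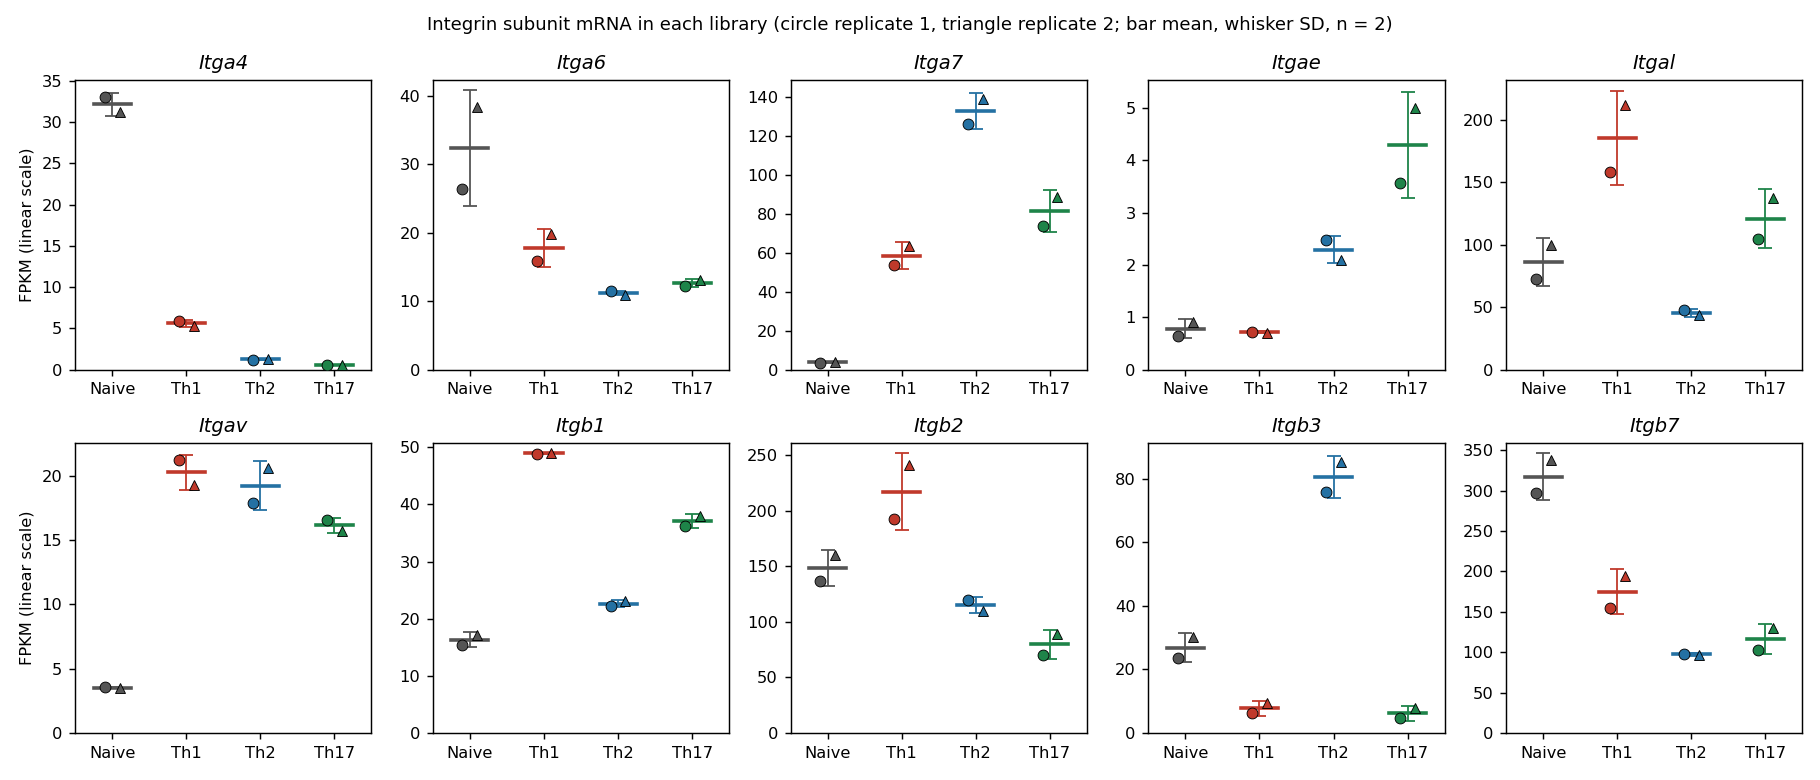
FPKM of each of the 10 integrin subunits in each library, on a linear axis that starts at 0 in every panel, with circles for replicate 1, triangles for replicate 2, bars for the mean and whiskers for the SD of 2 libraries. *Itga4* falls from 32.1 FPKM in naive cells to 0.564 in Th17 cells, *Itga7* reaches 133 in Th2 cells, and *Itgb3* stands at 80.4 in Th2 cells against 7.72 and 6.16 in Th1 and Th17 cells.

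*Itga4* encodes the alpha 4 chain and lies on chromosome 2 from 79255426 to 79333114 (mm10). Its FPKM was 33.1 and 31.2 in naive libraries, with Th1 at 5.88 and 5.31, Th2 at 1.18 and 1.27, and Th17 at 0.575 and 0.553. The 4 groups did not overlap and stood in the order naive, Th1, Th2, Th17. Mean FPKM was 5.74-fold lower in Th1, 26.2-fold lower in Th2 and 57.0-fold lower in Th17 than in naive cells. The differences in log2(FPKM + 1) were -2.33, -3.89 and -4.40, each with an SE of 0.09, and adjusted p of 1.43e-06, 1.89e-07 and 1.75e-07. Neighbours in the order differed as well, with Th1 above Th2 by 1.56 (adjusted p = 3.24e-05) and Th17 below Th2 by -0.51 (adjusted p = 0.00506). With a pseudocount of 0.1 that last difference was -1.0. The level in Th17 cells rests on an implied 177 and 127 fragments. *Itga4* shares 1124 exonic bases, 8.04% of its own, with *Cerkl* on the opposite strand, and *Cerkl* was listed at 0.372 to 1.49 FPKM. The labels name a stranded library kit and the methods a kit that does not keep strand, so reads from these bases may not be assignable, and their part in the low levels was not tested.

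*Itgb7* encodes the beta 7 chain, the partner of alpha 4 in gut-homing cells and of alpha E in epithelial tissue, and lies on chromosome 15 from 102215995 to 102231935. It was the most abundant of the 10 in naive cells, at 296 and 338 FPKM. Among effector libraries Th1 had 155 and 194, Th2 had 98.2 and 96.1, and Th17 had 103 and 129.7 FPKM. All effector libraries were below both naive libraries, and Th1 was the highest effector group. Relative to naive cells the differences were -0.86 in Th1, -1.69 in Th2 and -1.45 in Th17, with an SE of 0.16 and adjusted p of 0.00269, 8.15e-05 and 0.000196. Th1 exceeded Th2 by 0.83 (adjusted p = 0.00627), whereas Th17 and Th2 differed by 0.25 (95% interval -0.14 to 0.63, adjusted p = 0.253). Th1 exceeded Th17 by 0.58 (adjusted p = 0.0385). That call was lost without Th1 replicate 2 (0.42, adjusted p = 0.195) or Th17 replicate 1 (0.42, adjusted p = 0.183), and at adjusted p of 0.0504, 0.0685 and 0.0685 without naive replicate 1, Th2 replicate 1 or Th2 replicate 2.

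*Itgae*, on chromosome 11 from 73090595 to 73147449, encodes the alpha E chain CD103, which with beta 7 binds E-cadherin on epithelial cells. It was the least abundant member in naive and Th1 cells, at 0.650 and 0.907 FPKM in naive and 0.728 and 0.709 in Th1 libraries. Th2 libraries were at 2.47 and 2.11 and Th17 libraries at 3.57 and 5.01. Naive and Th1 libraries overlapped, whereas Th17 stood above Th2 and Th2 above both. With means of 0.778 FPKM in naive and 0.718 in Th1 cells, it reached the minimum of 1 only through its Th2 and Th17 levels. Its higher calls in those groups are therefore a description. The difference from naive cells was 0.89 in Th2 and 1.56 in Th17, with an SE of 0.16 and adjusted p of 0.00192 and 0.00012. In Th1 it was -0.05 (95% interval -0.42 to 0.33, adjusted p = 0.814). Th17 exceeded Th2 by 0.68 (adjusted p = 0.0139), a call lost without Th2 replicate 2 (0.59, adjusted p = 0.0778) or Th17 replicate 2 (0.48, adjusted p = 0.0600). Th1 was below Th2 by -0.93 (adjusted p = 0.00358) and below Th17 by -1.61 (adjusted p = 0.000519). These levels are shallow, with 37 and 63 implied fragments in naive and 45 in each Th1 library, and an interval of up to 32.8% of the value on either side. Quantile normalization gave -0.69 in Th1 (adjusted p = 0.00698), 0.33 in Th2 (adjusted p = 0.0961) and 0.84 in Th17 (adjusted p = 0.00272) against naive cells. A pseudocount of 0.1 in place of 1 gave 1.45 in Th2 against naive and -1.54 in Th1 against Th2 cells, since the pseudocount of 1 understates differences between low levels. *Foxp3*, which was also at a higher level in Th17 than in Th1 or Th2 libraries, was at its highest in naive libraries, where *Itgae* was low, and the part of regulatory T cells was not tested. *Haspin*, listed under its older symbol *Gsg2*, lies within *Itgae* on the opposite strand and shares no exonic bases with it. *Gsg2* stood at 1.84 and 1.85 FPKM in naive and at 6.32 to 10.3 in effector libraries.

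The laminin-binding chains alpha 6 and alpha 7 differed from naive cells in opposite directions. *Itga6*, on chromosome 2 from 71787083 to 71856758, encodes alpha 6, which pairs with beta 1 in T cells. Its FPKM was 26.4 and 38.4 in naive libraries, with Th1 at 15.9 and 19.8, Th2 at 11.4 and 10.9, and Th17 at 12.3 and 13.1. Every effector library was below both naive libraries. The differences from naive cells were -0.81, -1.43 and -1.27 in Th1, Th2 and Th17, with an SE of 0.18 and adjusted p of 0.00631, 0.00036 and 0.000728. Th1 exceeded Th2 by 0.62 (adjusted p = 0.0308). That call was lost without Th1 replicate 2 (0.47, adjusted p = 0.166), Th2 replicate 1 (0.65, adjusted p = 0.0910) or Th2 replicate 2 (0.59, adjusted p = 0.134), and at 0.0554 without either Th17 library. Th17 and Th2 differed by 0.17 (95% interval -0.27 to 0.60, adjusted p = 0.495), and Th1 and Th17 by 0.45 (95% interval 0.02 to 0.89, adjusted p = 0.121), which passed at 0.0471 and 0.0473 without naive replicate 1 or 2.

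*Itga7* encodes alpha 7, the laminin receptor best known from skeletal muscle, and lies on chromosome 10 from 128933813 to 128958284. Its FPKM was 3.45 and 3.98 in naive libraries, with Th1 at 53.7 and 63.5, Th2 at 126 and 139, and Th17 at 73.6 and 88.9. Levels rose from the naive group in every effector library, and the 4 groups did not overlap. Mean FPKM was 15.8-fold, 35.7-fold and 21.9-fold that of naive cells in Th1, Th2 and Th17. The differences were 3.66, 4.83 and 4.12, with an SE of 0.14 and adjusted p of 1.18e-06, 3.43e-07 and 6.39e-07. The study picked this gene from these libraries as a receptor raised in effector cells, so its direction against naive cells is not independent evidence. The study also stained the protein for flow cytometry and described it as uniform on all Th cells. It set this against the heterogeneous receptor CD30 on Th1 and Th17 cells, and its text gives no protein amounts per subset. Protein was not measured in these libraries. Th2 cells had the highest level, with Th1 below Th2 by -1.17 (adjusted p = 0.000712) and Th17 below Th2 by -0.71 (adjusted p = 0.00701). Th1 was below Th17 by -0.46 (adjusted p = 0.0494), and this last call was lost without any 1 of the 8 libraries, at adjusted p of 0.0562 to 0.2395. Without Th17 replicate 2 the value was -0.33 and without Th17 replicate 1 it was -0.60.

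*Itgb1*, on chromosome 8 from 128685654 to 128733579, encodes beta 1, the partner shared by alpha 4, alpha 6, alpha 7 and alpha V. Its FPKM was 15.4 and 17.2 in naive libraries, with Th1 at 48.8 and 49.0, Th2 at 22.1 and 23.0, and Th17 at 36.2 and 37.9. The groups did not overlap and stood in the order Th1, Th17, Th2, naive. Th1 exceeded naive cells by 1.53, Th17 by 1.14 and Th2 by 0.45, with an SE of 0.09 and adjusted p of 8.92e-06, 3.36e-05 and 0.00341. Th1 exceeded Th2 by 1.08 (adjusted p = 0.000139) and Th17 exceeded Th2 by 0.69 (adjusted p = 0.0014). The difference of Th1 from Th17 was 0.39 (adjusted p = 0.0196) and lost its call without Th1 replicate 1 or 2 (adjusted p = 0.0925 and 0.0944) or Th17 replicate 1 or 2 (adjusted p = 0.0969 and 0.0667).

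*Itgal* and *Itgb2* encode the alpha L and beta 2 chains of LFA-1, the leukocyte integrin that binds ICAMs at the synapse with antigen-presenting cells and on endothelium. *Itgal*, on chromosome 7 from 127296260 to 127335137, had 72.6 and 99.7 FPKM in naive libraries, with Th1 at 159 and 212, Th2 at 48.0 and 43.5, and Th17 at 105 and 138. The groups did not overlap, with Th1 the highest and Th2 the lowest. Against naive cells Th1 was higher by 1.10 (SE 0.22, adjusted p = 0.00348) and Th2 differed by -0.88 (adjusted p = 0.00888). The Th2 call was lost without naive replicate 2 (-0.66, adjusted p = 0.0520) or Th2 replicate 2 (-0.81, adjusted p = 0.0554). Th17 differed from naive cells by 0.49 (95% interval -0.03 to 1.01, adjusted p = 0.0829), a difference that passed with the replicate number as a block (adjusted p = 0.0287) and without naive replicate 2 (0.72, adjusted p = 0.0414). Th1 exceeded Th2 by 1.98 (adjusted p = 0.000514) and Th17 exceeded Th2 by 1.37 (adjusted p = 0.00307). For Th1 against Th17 the difference was 0.61 (95% interval 0.09 to 1.13, adjusted p = 0.0878), which passed with the block (adjusted p = 0.0293).

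*Itgb2*, on chromosome 10 from 77530348 to 77565674, had 137 and 159.8 FPKM in naive libraries, with Th1 at 193 and 242, Th2 at 120.0 and 110.1, and Th17 at 70.4 and 88.9. The order was Th1, naive, Th2, Th17, and the groups did not overlap. Th17 was below naive cells by -0.89 (SE 0.17, adjusted p = 0.00259). Th1 was above naive cells by 0.54 (adjusted p = 0.0236), a call lost without naive replicate 1 (0.43, adjusted p = 0.113) or Th1 replicate 2 (0.38, adjusted p = 0.135) and under quantile normalization (0.18, adjusted p = 0.367). Th2 differed from naive cells by -0.36 (95% interval -0.76 to 0.04, adjusted p = 0.0905), and passed with the block (adjusted p = 0.0400). Th1 exceeded Th2 by 0.90 (adjusted p = 0.00512) and Th17 by 1.44 (adjusted p = 0.00111). Th17 was below Th2 by -0.53 (adjusted p = 0.0386), and not past the threshold without Th2 replicate 1 (adjusted p = 0.148), Th2 replicate 2 (adjusted p = 0.103) or Th17 replicate 1 (adjusted p = 0.181). The 2 chains of LFA-1 thus had different subset orders, *Itgal* being lowest in Th2 and *Itgb2* lowest in Th17 libraries. Replicate 2 was above replicate 1 for *Itgal*, *Itgb2* and *Itgb7* in naive, Th1 and Th17 cells and below it in Th2 cells.

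*Itgav*, on chromosome 2 from 83724397 to 83806916, encodes alpha V, which binds RGD ligands such as vitronectin and osteopontin and, with some beta chains, the latent form of TGF-β. It had 3.55 and 3.50 FPKM in naive libraries, with Th1 at 21.3 and 19.3, Th2 at 17.9 and 20.6, and Th17 at 16.6 and 15.7. Each of the 6 effector libraries exceeded both naive ones, at 5.76-fold, 5.47-fold and 4.58-fold the naive mean FPKM in Th1, Th2 and Th17. The differences were 2.23, 2.16 and 1.92, with an SE of 0.10 and adjusted p of 2.62e-06, 2.5e-06 and 4.54e-06. Between subsets no difference passed. Th1 minus Th2 was 0.07 (95% interval -0.17 to 0.31, adjusted p = 0.592), Th17 minus Th2 was -0.24 (95% interval -0.48 to 0.00, adjusted p = 0.0978), and Th1 minus Th17 was 0.31 (95% interval 0.07 to 0.55, adjusted p = 0.0648). With the medians of the libraries made equal, Th17 was below Th2 by -0.41 (adjusted p = 0.0242) and below Th1, with Th1 minus Th17 at 0.39 (adjusted p = 0.0398). *Gm13684*, a transcript on the opposite strand whose level was not analysed here, shares 634 exonic bases with *Itgav*, 5.90% of its exons.

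*Itgb3*, on chromosome 11 from 104608000 to 104670471, encodes beta 3, the partner of alpha V and, in platelets, of alpha IIb. Its FPKM was 23.6 and 30.1 in naive libraries, with Th1 at 6.12 and 9.33, Th2 at 75.7 and 85.1, and Th17 at 4.54 and 7.77. Th2 libraries stood above all others, and Th1 and Th17 libraries overlapped below the naive ones. Mean FPKM in Th2 was 10.4-fold that of Th1 and 13.1-fold that of Th17. Th2 exceeded naive cells by 1.56, while Th1 and Th17 differed from them by -1.69 and -1.99, with an SE of 0.26 and adjusted p of 0.00152, 0.00111 and 0.000481. Th1 was below Th2 by -3.24 (adjusted p = 0.000129) and Th17 was below Th2 by -3.54 (adjusted p = 0.000143). Th1 and Th17 differed by 0.30 (95% interval -0.33 to 0.93, adjusted p = 0.475). Replicate 2 was the higher library in all 4 groups. The 5 platelet and megakaryocyte markers (*Itga2b*, *Pf4*, *Ppbp*, *Gp9* and *Gp1bb*) summed to 1.45 to 1.81 FPKM in naive, 0.904 to 1.11 in Th1, 6.33 to 10.1 in Th2 and 7.64 to 7.81 in Th17 libraries. *Pf4*, platelet factor 4, was at 0 and 0.114 FPKM in naive libraries, with Th1 at 0.170 and 0.356, Th2 at 7.69 and 4.32, and Th17 at 5.83 and 4.96. *Ppbp*, a platelet chemokine, was at 1.21 to 1.75 FPKM over the Th2 and Th17 libraries and at most 0.0997 in the others. *Itga2b*, the platelet partner of beta 3, was at 0.881 and 0.770 FPKM in Th2 libraries and at 1.35 and 1.70 in naive ones, and *Gp9* was at 0 in both Th2 libraries. The part of these markers in the *Itgb3* levels was not tested.

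Among the 6 member alpha chains, *Itgal* had the largest share of mRNA in naive, Th1 and Th17 cells and *Itga7* in Th2 cells. The shares leave out *Itga3*, at 85.7 and 107 FPKM in Th17 libraries, where *Itga7* had 73.6 and 88.9 and *Itgal* 105 and 138. They hold within the 6 alone. *Itgal* took 54.0% ± 2.95 (SD, n = 2) of the summed FPKM of the 6 alpha chains in naive cells, with 64.1% ± 2.95 for Th1, 21.6% ± 2.27 for Th2 and 51.1% ± 2.27 for Th17. *Itga7* took 2.36% ± 0.163 in naive cells, with 20.4% ± 0.822 for Th1, 62.4% ± 2.18 for Th2 and 34.5% ± 0.538 for Th17. It thus led the 6 in Th2 cells alone. *Itga4* and *Itga6* each took about as much as the other in naive cells, at 20.6% ± 4.33 and 20.3% ± 1.91. In effector cells *Itga4* was at 1.97% or less of the sum and *Itga6* at 5.27% to 6.18%. *Itgav* was at 2.25% ± 0.402 in naive cells and between 6.94% and 9.05% in effector cells, and *Itgae* was at 1.81% or less.

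Of the 4 beta chains, *Itgb7* took 62.4% ± 0.561 of the summed FPKM in naive cells, with 38.9% ± 0.594 for Th1, 30.8% ± 0.357 for Th2 and 48.6% ± 0.731 for Th17. *Itgb2* took 29.1% ± 0.254, 48.4% ± 0.711, 36.5% ± 2.07 and 33.3% ± 0.507 in the same order. *Itgb3* took 25.5% ± 2.20 in Th2 cells and 1.70% to 5.26% in the other groups. *Itgb1* was at 3.21% ± 0.0777 in naive cells and highest in Th17 cells, at 15.6% ± 1.81. These shares were not tested, and a share moves when any other chain of the sum moves.

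**Figure D3:**
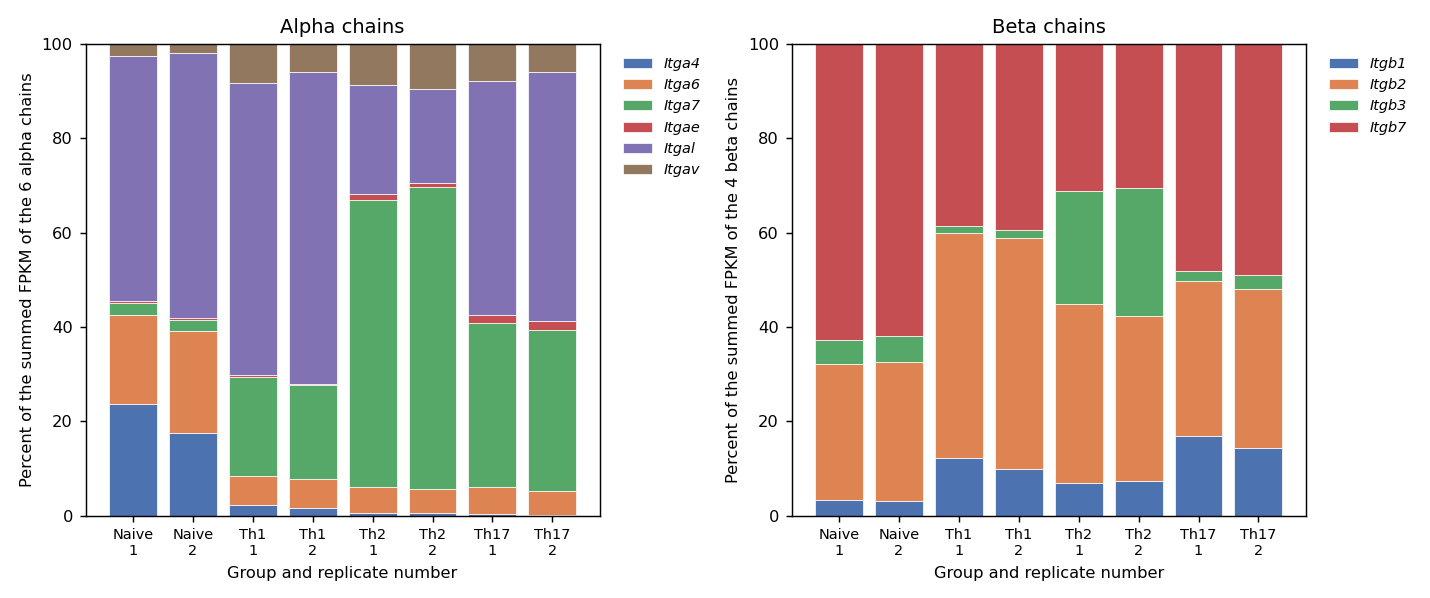
Share of each chain in the summed FPKM of the 6 alpha chains (left) and of the 4 beta chains (right), in percent, 1 bar per library. *Itga7* takes 62.4% of the alpha sum in Th2 cells, and *Itgb3* takes 25.5% of the beta sum in Th2 cells and 5.26% or less in naive, Th1 and Th17 cells.

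For 8 known heterodimers the ratio of the alpha to the beta mRNA was taken in each library as log2((alpha FPKM + 1)/(beta FPKM + 1)), with no test. The alpha 4 to beta 1 ratio was 0.94 ± 0.16 (SD, n = 2) in naive cells, with -2.92 ± 0.09 for Th1, -3.40 ± 0.0015 for Th2 and -4.60 ± 0.06 for Th17, so that alpha 4 was the more abundant chain in naive cells alone. Alpha 6 over beta 1 was likewise above 0 in naive cells alone, at 0.93 ± 0.26 against -1.41 ± 0.21, -0.95 ± 0.08 and -1.48 ± 0.01. Alpha 7 over beta 1 was below 0 in naive cells alone, at -1.88 ± 0.01 against 0.25 ± 0.17 in Th1, 2.50 ± 0.06 in Th2 and 1.11 ± 0.14 in Th17.

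Both partners of beta 7 were the scarcer chain in every library. Alpha 4 over beta 7 was -3.26 ± 0.19 in naive cells, with -4.73 ± 0.32 for Th1, -5.46 ± 0.06 for Th2 and -6.22 ± 0.25 for Th17. Alpha E over beta 7 was -7.48 ± 0.02 in naive cells, with -6.67 ± 0.24 for Th1, -4.90 ± 0.09 for Th2 and -4.47 ± 0.04 for Th17, a smaller imbalance in effector than in naive cells. For LFA-1, alpha L over beta 2 was -0.79 ± 0.16 in naive cells, with -0.23 ± 0.07 for Th1, -1.31 ± 0.01 for Th2 and 0.59 ± 0.04 for Th17, so that Th17 alone had more alpha L than beta 2 mRNA. Alpha V over beta 3 was -2.61 ± 0.25 in naive and -2.01 ± 0.02 in Th2 cells and 1.31 ± 0.47 and 1.30 ± 0.52 in Th1 and Th17 cells. Alpha V over beta 1 was below 0 in all groups, from -1.94 ± 0.12 in naive to -0.22 ± 0.10 in Th2 cells. An mRNA ratio is not a ratio of chains at the cell surface.

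**Figure D4:**
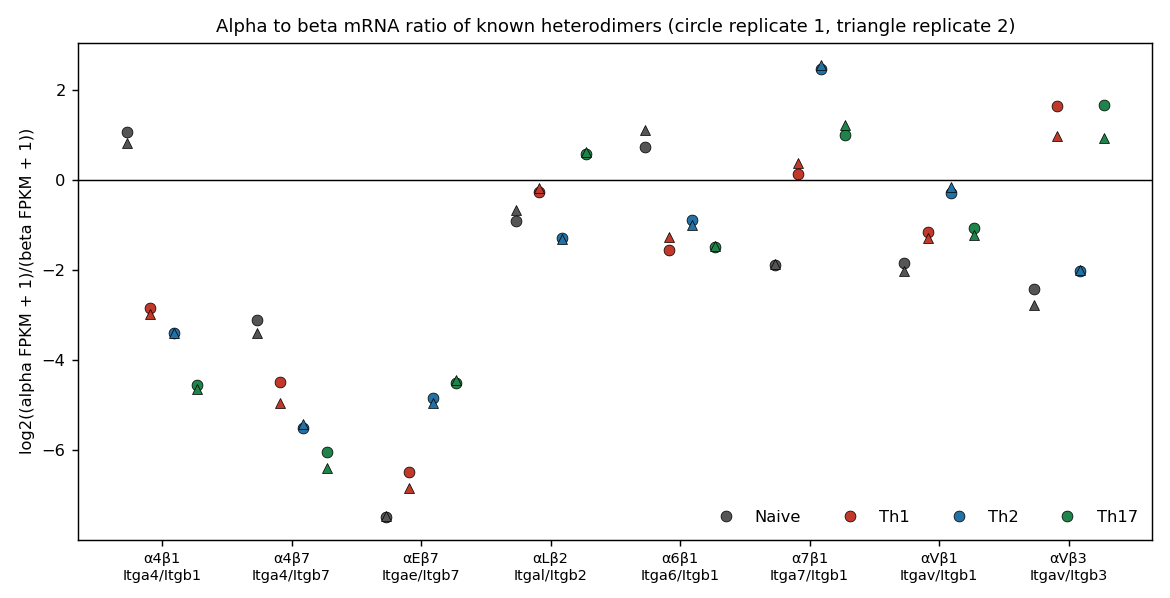
Alpha to beta mRNA ratio of 8 known integrin heterodimers, as log2((alpha FPKM + 1)/(beta FPKM + 1)), in each of the 8 libraries, with circles for replicate 1 and triangles for replicate 2. Points above the line at 0 have more alpha than beta mRNA, as for alpha 4 with beta 1 in naive cells alone and for alpha V with beta 3 in Th1 and Th17 cells alone.

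Other tested genes of nearest pattern were ranked by the root mean square difference of log2(FPKM + 1) over the 8 libraries, each gene centred on its own mean. This is a description, and points of 1 library share its depth. Among the nearest to *Itga4* were *Mylip* (0.19) and *Lypd6b* (0.35), and nearest to *Itga7* were *Pcx* (0.14), *Cox6b2* (0.16) and *Gbe1* (0.18). *Itgav* was nearest to *Cyp51* (0.06), *Plk4* (0.09) and *Kif18a* (0.11). The gene nearest to *Itgb3* was *Gata3*, the Th2 lineage factor, at 0.42 beside a median of 1.56 over all tested genes, followed by *Ikzf3* (0.50) and *Ccl24* (0.61). *Gata3* had 20.2 and 20.4 FPKM in naive libraries, with Th1 at 5.46 and 7.95, Th2 at 127 and 133, and Th17 at 5.83 and 9.19. *Itga6* was nearest to *D930015E06Rik* (0.07), *Ablim1* (0.08) and *Aak1* (0.09), and *Itgb7* to *Ablim1* (0.11), *D14Ertd668e* (0.11) and *H2-M3* (0.12), so that *Ablim1* stood near both. For *Itgae* they were *Trappc9* (0.13), *Tdrkh* (0.16) and *Nme4* (0.18), for *Itgal* *Pion* (0.20), *2310010J17Rik* (0.21) and *Anxa6* (0.22), for *Itgb1* *Rpgrip1l* (0.11), *Ppt1* (0.11) and *Wdfy1* (0.12), and for *Itgb2* *Ctsd*, *Pglyrp2* and *Ptpre* (0.18 each).

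Of 16 further integrin subunits listed in the files, 5 reached a mean of 1 FPKM and were tested. *Itga3*, *Itgb5* and *Itgax* were under 1 FPKM in naive libraries and could be tested only through their effector levels, so the counts over these 5 are a description. Against naive cells 3 were higher and 1 lower in Th1, beside 33.8% and 33.5% of all tested genes. The 5 were higher in Th2 as well as in Th17 cells, beside 31.8% and 37.5%. *Itga3*, a laminin-binding alpha chain, was at 0.479 and 0.510 FPKM in naive libraries, with Th1 at 10.4 and 10.8, Th2 at 12.5 and 13.5, and Th17 at 85.7 and 107. Its Th17 libraries stood apart from all others, with Th17 above Th2 by 2.79 (SE 0.12, adjusted p = 1.46e-05) and above naive cells by 6.02 (adjusted p = 1.51e-07). *Itgb5*, a further partner of alpha V, was at 0.595 and 0.403 FPKM in naive libraries, with Th1 at 10.7 and 13.5, Th2 at 16.4 and 17.9, and Th17 at 11.1 and 11.7. It was higher by 3.12, 3.60 and 3.05 in the 3 effector groups, with an SE of 0.13 and adjusted p of 1.85e-06, 8.27e-07 and 1.88e-06. *Itga5*, the fibronectin receptor alpha chain, was higher by 1.40, 0.90 and 1.63 (SE 0.15, adjusted p = 0.000197, 0.00162 and 8.48e-05).

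*Itgam* and *Itgax*, alpha chains of beta 2 best known from myeloid cells, were at 0.916 to 2.03 and 0.107 to 2.27 FPKM. *Itgam* differed from naive cells by 0.04 in Th1 (adjusted p = 0.781), 0.43 in Th2 (adjusted p = 0.0233) and 0.51 in Th17 (adjusted p = 0.0114), where Cufflinks had marked the estimate of naive replicate 1 as failed. *Itgax* was lower in Th1 (-0.51, adjusted p = 0.00453) and higher in Th2 (1.02, adjusted p = 0.000136) and Th17 (0.70, adjusted p = 0.000978). Of the myeloid and dendritic markers, of which both are members, 7 were in the files. They summed to 12.0 to 12.5 FPKM in naive, 9.08 to 9.79 in Th1, 17.5 to 25.9 in Th2 and 19.0 to 19.1 in Th17 libraries. The markers differed in order. *Lyz2* had 19.9 and 11.7 FPKM in Th2 and 6.94 and 6.33 in naive libraries. *Csf1r* had 3.84 and 3.20 in naive and at most 0.989 in effector libraries. *Cd14* was higher in Th1 (2.54 and 2.96) and Th17 (4.41 and 3.75) than in Th2 libraries (0.557 and 0.539). The part of myeloid and dendritic cells in the *Itgam* and *Itgax* differences was not tested.

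Of 42 integrin activation and adaptor genes, 37 were tested. In Th1, 8 were higher and 18 lower than in naive cells, beside 33.8% and 33.5% of all tested genes. In Th2, 8 were higher and 25 lower, beside 31.8% and 38.7%, so that lower calls were the more frequent over all genes as well. In Th17, 10 were higher and 19 lower, beside 37.5% and 29.8%. The medians were -0.40, -0.74 and -0.45, beside -0.01, -0.11 and 0.08 over all tested genes. *Rasgrp2*, the exchange factor that loads Rap1 with GTP, was at 139.9 and 152 FPKM in naive libraries, with Th1 at 14.1 and 17.1, Th2 at 5.50 and 5.31, and Th17 at 2.43 and 2.75, the same order of groups as for *Itga4*. It was lower than in naive cells by -3.15, -4.52 and -5.36 (SE 0.12, adjusted p = 1.06e-06, 2.34e-07 and 1.77e-07). *Actn1*, which links integrin tails to actin, differed by -4.06, -3.44 and -3.54, *Stk4*, the kinase MST1, by -1.88, -2.39 and -2.07, and *Apbb1ip*, the Rap1 effector RIAM, by -1.32, -2.97 and -2.16. The tetraspanins *Cd9* and *Cd81*, membrane partners of integrins, went opposite ways, *Cd9* at -1.84, -3.52 and -2.14 and *Cd81* at 1.67, 2.14 and 1.85. All of these passed the test in the 3 effector groups. They are part of 20 genes of the list that passed in all 3 with 1 sign, 5 higher and 15 lower. The list was chosen with earlier results of these data known, so its counts are a description.

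Of 27 integrin ligand genes, 10 were tested. In Th1 as well as in Th2 cells 7 were higher and 2 lower than in naive cells, beside 33.8% and 33.5% of all tested genes for Th1, and 31.8% and 38.7% for Th2. In Th17 cells 8 were higher and 2 lower, beside 37.5% and 29.8%. The medians were 1.30, 1.91 and 1.28, beside -0.01, -0.11 and 0.08 over all tested genes. A gene low in naive cells could be tested only through its effector levels, so these counts are a description. *Lama5*, a laminin alpha chain, was at 0.0351 and 0.0432 FPKM in naive libraries, with Th1 at 30.9 and 39.9, Th2 at 99.7 and 107, and Th17 at 39.1 and 56.4. Its differences from naive cells were 5.12, 6.65 and 5.53 (SE 0.19, adjusted p = 1.09e-06, 3.4e-07 and 7.05e-07). *Lamc1*, the laminin gamma 1 chain, was higher by 3.80, 3.73 and 4.13. *Spp1*, which encodes osteopontin, was higher by 4.99, 3.12 and 3.80, and *Tgfb3* by 2.78, 4.35 and 2.54. *Vcam1*, the ligand of alpha 4 with beta 1, was at 4.45 and 3.54 FPKM in naive and at most 0.0908 in effector libraries. Its mean over all libraries was 1.02 FPKM, so it could be tested only through its naive level. *Icam2*, a ligand of LFA-1, was lower by -2.00, -2.70 and -1.77. Each of these 6 passed in all 3 effector groups, and which cells made the RNA in these cultures was not tested.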

How the data were processed

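RNA sequencing of 4 groups with 2 libraries each was analysed, with groups and replicate numbers taken from the labels. Per the submitters' processing notes, the authors aligned reads to mm10 with Bowtie 0.12.8 and TopHat 1.3.2 and computed FPKM per gene with Cufflinks 2.0.2. The deposited FPKM, their confidence limits and estimation status were used. The gene annotation is not given in the sources used here.

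FPKM of rows with the same symbol were summed, 1 was added, and genes averaging at least 1 FPKM were fitted on the log2 scale with limma 3.58.1 in R 4.3.3, using lmFit, then eBayes with its trend option, and 4 group means over all 8 libraries. Tests were two-sided and adjusted by Benjamini-Hochberg over all 11198 genes. A depth of n fragments was implied by an interval of FPKM ± 2 SD, and covers counting error only. The scripts were tested on simulated data. Tables used Python 3.11.15, pandas 2.3.3 and numpy 2.4.6, and plots matplotlib 3.10.9.

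The replicate numbers were checked for pairing: the difference between replicates correlated across genes with r of 0.138 to 0.294 for the 6 pairs of groups, so a fit blocked on that number is given where it changed a call. Genes overlapping a member were read from GENCODE vM21 (GRCm38), and promoters, for 4 of the 10 members, from RefSeq. Alternatives were another pseudocount (0.1), no filter or a minimum of 5, 2 scalings, fits of only the 2 groups compared, no trend, the highest row per symbol, the block, and each library left out.

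The members and gene lists were chosen with earlier results of these data known. Named were the 10 members, the tested further integrin subunits, up to 6 adaptor and 6 ligand genes ranked by the smallest of their 3 absolute differences from naive cells among those past the threshold with 1 sign, the 3 nearest genes per member, and overlapping genes. Some genes that this rule or the marker lists hold are not reported here.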

Additional observations from a re-analysis of the deposited data

Results flagged for a closer look

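For 9 of the 10 members, the effect against naive cells differed between 2 effector subsets by the test of the difference itself, and the value with the smallest p is given for each in log2(FPKM + 1). *Itga4* was higher in Th1 than in Th17 cells by 2.07, and *Itgb2* by 1.44. *Itgae* was lower in Th1 than in Th17 cells, at -1.61, and could be tested only through its Th2 and Th17 levels. Th1 exceeded Th2 cells by 1.98 for *Itgal*, 1.08 for *Itgb1*, 0.83 for *Itgb7* and 0.62 for *Itga6*, whereas *Itga7* was lower in Th1 than in Th2 cells, at -1.17. *Itgb3* was lower in Th17 than in Th2 cells, at -3.54. Such differences were common, with 59.9% of all tested genes past the threshold in at least 1 of the 3 comparisons between subsets. The members were chosen with earlier results of these data known.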

How the results depend on the processing

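Of 1014 values of a single member under an alternative, 950 kept both sign and call, 45 lost the call, 12 gained it and 7 changed sign. The changes of sign were in differences that had not passed. *Itga6* in Th17 against Th2 became -0.0049 with equal medians and -0.0107 with quantile normalization. *Itgav* in Th1 against Th2 became -0.0181 with equal medians and -0.0495 with quantile normalization, and ranged from -0.0236 without Th2 replicate 1 to 0.169 without Th2 replicate 2. *Itgae* in Th1 against naive ranged from -0.150 without naive replicate 1 to 0.0585 without naive replicate 2, and *Itgb3* in Th1 against Th17 from -0.0318 without Th17 replicate 1 to 0.629 without Th17 replicate 2. The causes were not tested.

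Members past in all 3 comparisons between subsets, 5 as reported, numbered 2 to 4 without 1 library each and 3 with no filter or a filter of 5 FPKM.

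With the replicate number as a block, paired by the labels' numbers, 3 member calls were gained (*Itgal* in Th17 against naive and in Th1 against Th17, at adjusted p of 0.0287 and 0.0293, and *Itgb2* in Th2 against naive, at 0.0400), and no other member call changed. In Th1 against Th17, 2 members were lower. This became 1 with a pseudocount of 0.1, no filter, equal medians, only the 2 groups fitted or no trend, and 0 with a filter of 5 FPKM, which removes *Itgae*. Without 1 library each it was 1 to 1, and the number of higher members was 2 to 5, with 2 without Th1 replicate 2 or Th17 replicate 1.

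Over all genes, in Th17 against Th2 the 3546 higher became 2303 with equal medians and 2256 with quantile normalization, and the 1339 lower became 2018 and 2191. In Th1 against Th17 the 1788 lower became 1047 with a filter of 5 FPKM. Without 1 library each, higher and lower genes numbered 557 to 1020 and 954 to 1739 in Th1 against Th17, and 1861 to 3548 and 877 to 1328 in Th17 against Th2. Higher genes in Th1 against Th2 numbered 1753 to 3030. The lowest of these counts came without Th1 replicate 2 for higher genes in both Th1 comparisons, and without Th17 replicate 2 for lower genes in Th1 against Th17 and for both counts in Th17 against Th2.

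Alpha to beta ratios moved mainly with a pseudocount of 0.1. Alpha 4 over beta 1 became -3.11 in Th1, -4.10 in Th2 and -5.81 in Th17, alpha 4 over beta 7 -6.19 in Th2 and -7.44 in Th17, and alpha E over beta 7 -8.51 in naive, -7.73 in Th1, -5.35 in Th2 and -4.74 in Th17. Alpha L over beta 2 became -1.33 in Th2, alpha 6 over beta 1 -1.54 in Th17, alpha 7 over beta 1 -2.11 in naive, alpha V over beta 1 -2.18 in naive, and alpha V over beta 3 -2.88 in naive and -2.06 in Th2. With equal medians alpha 4 over beta 1 was -3.45 in Th2 and alpha E over beta 7 was -7.46 in naive cells. With quantile normalization alpha 4 over beta 1 was -3.61 in Th2 and -4.82 in Th17, alpha 4 over beta 7 -5.62 in Th2, alpha E over beta 7 -7.16 in naive and -4.60 in Th17, alpha 7 over beta 1 -1.73 and alpha V over beta 1 -1.78 in naive, and alpha V over beta 3 -1.98 in Th2. With 2 libraries per group an SD is a rough estimate. The fewest implied fragments of a member were 37 to 63, for *Itgae* in naive and Th1 libraries, followed by 117 and 140 for *Itgae* in Th2 and 127 and 177 for *Itga4* in Th17 libraries.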

Other observations

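*Itga2*, a collagen-binding alpha chain, was among the 11 integrin subunits under the filter on low values and was singled out after its values were seen. It was at 1.66 and 2.45 FPKM in Th1 libraries, 0.272 and 0.339 in naive, 0.122 and 0.0331 in Th2 and 0.232 and 0.423 in Th17 libraries, so both Th1 libraries stood above the other 6. It was not tested.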
